A study of Anopheles gambiae with 4 samples.

Results

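The probe sets described here are those of the Anopheles gambiae fat body whose signal was lower after a CpG oligodeoxynucleotide (CpG-ODN) than after buffer in each of 2 replicates. They were chosen by their own values. A probe set had to have an ID starting with Ag. but not with Ag.X., a mean log2 signal over the 4 arrays above the median of all 16884 Ag. probe sets (a signal of 69.5), and a CpG-ODN minus buffer difference of −0.4 log2 or lower in replicate 1 and again in replicate 2. Of 17965 probe sets in the table and 7727 that met the ID and brightness conditions, 23 were members, which is 0.298%. Because the differences between CpG-ODN and buffer chose the members, those differences are a description here and not a test.

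Adult females of the Yaounde strain, 3 to 4 days old, received 69 nL of a 0.1 mM CpG-ODN solution, or 69 nL of the elution buffer alone, by injection into the thorax, and RNA was taken 18 h later. Each RNA sample came from a pool of 20 to 30 abdomens from which midgut, ovaries and Malpighian tubules had been removed, so that it can hold cells other than fat body, and each was hybridised to 1 Affymetrix Plasmodium/Anopheles array. The groups were CpG-ODN, with 2 arrays, and buffer, with 2 arrays, and both groups were anaesthetised by cold and wounded by the needle. Uninjected females and an oligonucleotide without a CG step were not analysed here, so the differences below are those between an oligonucleotide in buffer and buffer alone.

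The injected oligonucleotide, named 0604, is shown because it is what the labels give as the difference between the groups. The capitals mark its single CG step, which begins at position 8 of 20 from the 5′ end.
0604: tccatgaCGttcctgatgct

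In vertebrates, an unmethylated CG step in a suitable sequence context makes such DNA a stimulant of innate immunity through Toll-like receptor 9. The insect fat body combines functions of liver and adipose tissue. It stores lipid and glycogen, secretes most proteins of the haemolymph, yolk precursors among them, and is a main source of antimicrobial peptides after infection or injury.

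The files and the reference table of 15165 genes do not pair the probe sets with genes, and 0 of the 23 IDs matched that table. No gene, function or protein can therefore be given for any member, the tissue could not be checked against fat body markers, and no check for RNA of other tissues was made. The members are numbered from 1 to 23 by the weaker of their 2 differences, the strongest first, and IDs are given for the first 2. In pooled tissue, fewer cells of a type and less RNA per cell cannot be told apart.

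The median signal of all Ag. probe sets lay between 67.2 and 70.7 on the 4 arrays. A background level was set on each array at the 95th percentile of 24 control probe sets and ran from 53.2 to 81.4 signal units. Of the 23 members, 19 lay above it on all 4 arrays, which is also the case for 86.2% of the 8442 Ag. probe sets tested. The other 4 each had 1 CpG-ODN array under it.

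Among the 23 members the difference in replicate 1 had a median of −0.53 log2 (1.44-fold lower with CpG-ODN) and ran from −1.65 to −0.40. In replicate 2 the median was −0.69 log2 (1.61-fold lower) and the range −2.71 to −0.40. Over all 8442 tested probe sets the corresponding medians were −0.001 and −0.036 log2. At least 2-fold lower signal in both replicates was seen in 5 members and at least 1.5-fold in 8. In the other 15 the weaker difference lay closer to the limit. Their differences ran from −0.91 to −0.40 log2 in replicate 1 and from −1.01 to −0.40 in replicate 2. The −1.01 is a measured value of member 12 that rests on a signal under background. Single differences still overlapped those of members 7 and 8. In replicate 1, member 11 had −0.91 log2, against −0.79 and −0.80 for members 7 and 8.

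**Figure D1:**
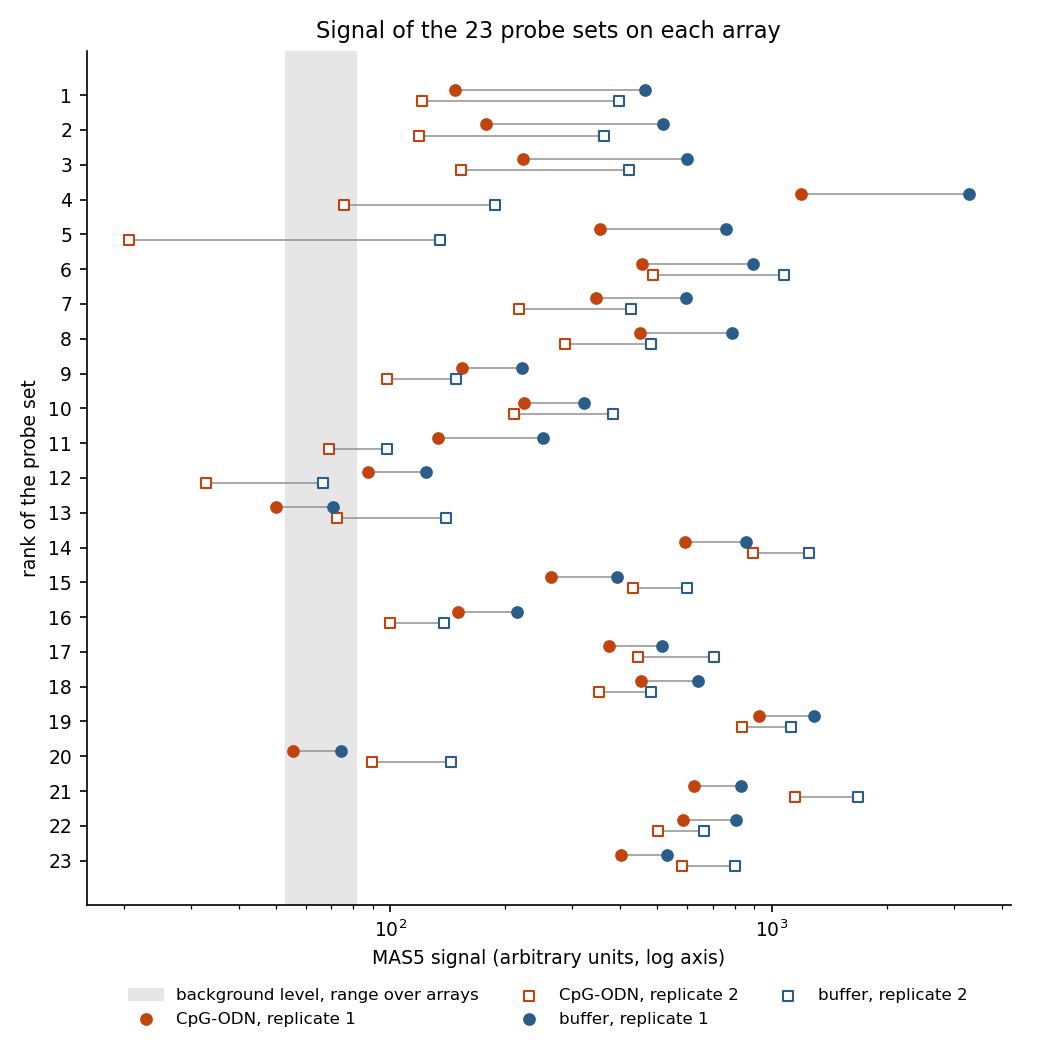
MAS5 signal of the 23 probe sets (rows, ranked from 1 at the top) on the 4 arrays, on a log axis in arbitrary units; filled circles are replicate 1 and open squares replicate 2, red for CpG-ODN and blue for buffer, each grey line joins the 2 arrays of one replicate number, and the grey band spans the background levels of the arrays, 53.2 to 81.4. In every row the red point lies left of the blue point of its replicate, while in rows 4 and 5 the replicates lie far apart.

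The member ranked first was Ag.UNKN.267.0_CDS_at. Its signal was 148 and 121 on the CpG-ODN arrays of replicates 1 and 2, against 466 and 397 on the buffer arrays. Both CpG-ODN arrays were far below both buffer arrays, and the replicates lay close together within each group. The log2 signal averaged 7.06 ± 0.21 with CpG-ODN and 8.75 ± 0.16 with buffer (SD, n = 2 each), 3.15-fold lower with CpG-ODN in replicate 1 and 3.28-fold lower in replicate 2.

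The second was Ag.3R.1567.0_CDS_at, with signals of 178 and 119 on the CpG-ODN arrays, against 517 and 362 on the buffer arrays. The groups again did not overlap. Mean log2 signals were 7.19 ± 0.41 with CpG-ODN and 8.76 ± 0.36 with buffer (SD, n = 2 each), and the signal was 2.91-fold and 3.04-fold lower with CpG-ODN in replicates 1 and 2.

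The third member, whose ID ends in _s_at and which can therefore bind several transcripts, had signals of 222 and 153 with CpG-ODN, against 600 and 423 with buffer. Its differences were −1.43 and −1.47 log2. The first 3 members thus had 6 single-replicate differences between −1.72 and −1.43 log2. Within each member the CpG-ODN minus buffer differences of the replicates lay less than 0.1 log2 apart. Whether the 3 probe sets measure related transcripts is not known, since neither their sequences nor their genes were among the files.

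Members 4 and 5 combined a large difference between CpG-ODN and buffer with a larger one between the replicates. Member 4 had signals of 1192 and 75.6 on the CpG-ODN arrays of replicates 1 and 2, against 3278 and 188 on the buffer arrays. The CpG-ODN array of replicate 1 was thus brighter than the buffer array of replicate 2, and the groups overlapped, although within each replicate CpG-ODN was lower by 2.75-fold and 2.49-fold. Without the CpG-ODN array of replicate 2, or without the buffer array of replicate 1, its mean difference was no longer negative.

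Member 5 had signals of 354 and 20.6 with CpG-ODN, against 756 and 135 with buffer. In replicate 1 the CpG-ODN signal was 2.13-fold lower. In replicate 2 it lay under the background level of that array, 53.2, so that only a bound holds there: at least 2.53-fold lower. The −2.71 log2 given above as the end of the range is this member's measured difference and rests on a signal under background. Both of its replicate 2 arrays were dimmer than both replicate 1 arrays, and its mean difference was not negative without the CpG-ODN array of replicate 2.

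Members 6, 7 and 8 came next by the weaker difference, and none of them overlapped between the groups. Member 6, another probe set ending in _s_at, had 458 and 489 with CpG-ODN, against 891 and 1074 with buffer, 1.95-fold and 2.20-fold lower. Member 7 had 346 and 218 with CpG-ODN, against 597 and 426 with buffer, and member 8 had 452 and 286, against 785 and 482. In member 8 the lower buffer array was only a little above the higher CpG-ODN array, and replicate 1 was the brighter in both groups.

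Of members 9 to 23, 13 were above background on the CpG-ODN array of replicate 1 and were 1.32-fold to 1.88-fold lower with CpG-ODN there, and 14 were above it in replicate 2 and were 1.32-fold to 1.92-fold lower. Member 21 had 624 and 1151 with CpG-ODN in replicates 1 and 2, against 830 and 1686 with buffer. Its groups overlapped, since its CpG-ODN signal in replicate 2 was above its buffer signal in replicate 1, and without the buffer array of replicate 2 its mean difference was not negative. By contrast, member 10 had 224 and 211 with CpG-ODN, against 323 and 382 with buffer, and its groups were clearly apart.

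For 3 members of these 15 a signal under background limits what can be said. Member 12 had 32.9 on the CpG-ODN array of replicate 2, under background, against 66.4 on the buffer array, so that it was at least 1.25-fold lower in that replicate. In members 13 and 20 the CpG-ODN signal of replicate 1 (50.2 and 55.5) and the buffer signal (70.7 and 74.2) were all under the level of that CpG-ODN array, 81.4, and no fold is given for replicate 1. Both of these members were above background on the replicate 2 arrays, where they were 1.92-fold and 1.61-fold lower with CpG-ODN.

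The limit of −0.4 log2 cut through a continuous distribution. The last 3 members had differences of −0.41 and −0.55, −0.46 and −0.40, and −0.40 and −0.46 log2 in replicates 1 and 2. The nearest 3 probe sets outside had −0.48 and −0.39, −0.40 and −0.38, and −0.38 and −1.06. A further 3 probe sets with IDs starting Ag.X. met both limits and were left out by the rule on IDs.

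The limit was reached far more often in replicate 2. Of the 7727 eligible probe sets, 121 were at or below −0.4 log2 in replicate 1 and 581 in replicate 2, so that the 23 members were 19.0% of the first list and 3.96% of the second. Over all tested probe sets the differences had an SD of 0.20 log2 in replicate 1, against 0.31 in replicate 2. Among the same 7727, 83 were at least 0.4 log2 higher with CpG-ODN in both replicates, and 44 passed 0.4 in opposite directions, 18 of them lower in replicate 1 and 26 lower in replicate 2. Taken by direction, the probe sets that disagreed between the replicates (18 and 26) were thus similar in number to the 23 lower in both. They were fewer than the 83 higher in both.

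**Figure D2:**
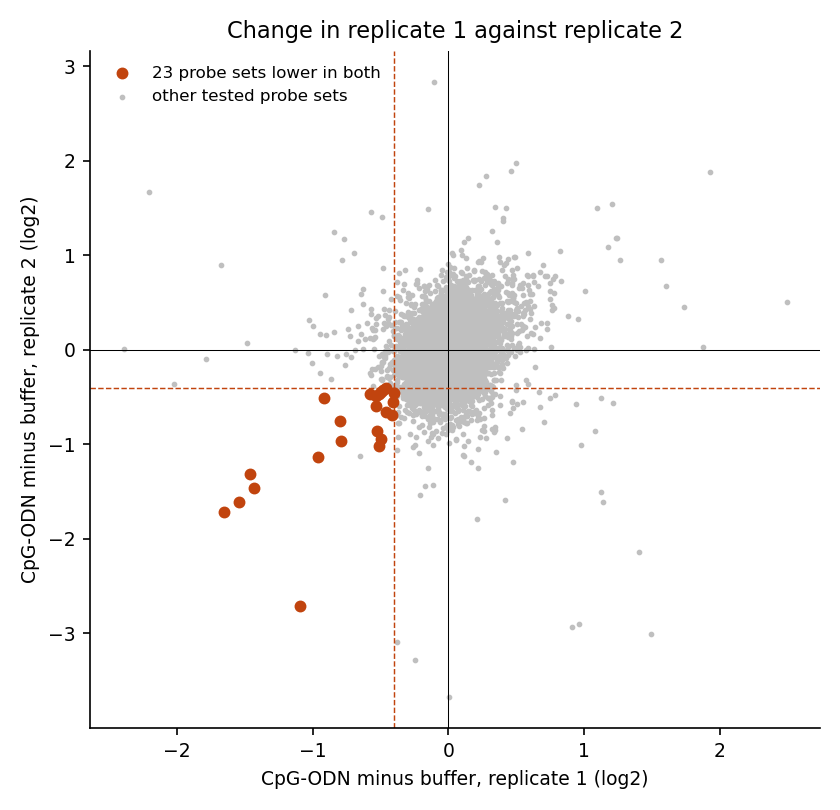
CpG-ODN minus buffer in replicate 1 (horizontal axis, log2) against replicate 2 (vertical axis, log2) for the 8442 tested probe sets, with the 23 members in red and the limit of −0.4 as dashed lines. The members fill the lower left corner, with 8 of them apart from the main cloud at 1.5-fold or more in both replicates, and the 3 grey points in that corner are the Ag.X. probe sets left out by ID.

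The 2 differences of a member lay within 0.1 log2 of each other in 11 of the 23 (47.8%, against 30.8% of all tested) and differed by over 0.3 in 5. The median gap was 0.11 log2, against 0.17 over all tested probe sets. The rule required both differences to pass the same limit, so nothing is read from these gaps. The difference was larger in replicate 2 for 14 members and larger in replicate 1 for 9. Over all 2738 tested probe sets that were lower with CpG-ODN in both replicates, 68.7% had the larger difference in replicate 2. The largest gap, 1.62 log2, was that of member 5, whose replicate 2 value lay under background.

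The CpG-ODN arrays lay wholly below the buffer arrays in 11 of the 23 members, while 13.3% of all tested probe sets did so. The rule used these values, and nothing is read from that count. In the other 12 the CpG-ODN array of the brighter replicate exceeded the buffer array of the dimmer one. With 2 arrays against 2, an exact permutation test cannot go below p = 0.333, and none was run.

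In the limma comparison of CpG-ODN with buffer over all 8442 tested probe sets, 0 were called lower (0%) at a Benjamini-Hochberg adjusted p of 0.05, members included, with a smallest adjusted p of 0.9999. That fit did not hold the replicate number, so it counted differences between the replicates as error. Its lack of calls is therefore not read as a lack of change. At an unadjusted limma p below 0.05, 25 tested probe sets were lower with CpG-ODN (0.296%), and 8 of the 23 members were below that threshold. In the limma fit that also held the replicate number, as a block, 5 tested probe sets were called lower (0.0592%), all of them members, namely members 1, 2, 3, 4 and 6. Their adjusted p in the blocked limma fit ran from 0.00581 to 0.0277. Member 5 was not called there (limma adjusted p = 0.110). The same contrast chose the members, so these calls describe them and do not support the choice.

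The comparison of replicate 1 with replicate 2 did not enter the rule, but it uses the same 4 signals from which the members were chosen. Whether the rule favoured probe sets that vary more between arrays was not tested, so the sizes below are a description. Members were more often far apart between the replicates than other probe sets. The size of the replicate 1 minus replicate 2 difference had a median of 0.58 log2 over the members and 0.18 over all tested probe sets. It reached 0.4 log2 in 16 of the 23 members (69.6%), against 18.7% of all tested, and 1 log2 in 4 members, against 1.81% of all tested. In 12 members it was larger than the mean difference between CpG-ODN and buffer.

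The direction was not shared. In 14 members both replicate 1 arrays were brighter than the replicate 2 array of the same group, in 8 both were dimmer, and in 1 the groups differed in direction. Over all tested probe sets these shares were 36.9% brighter and 35.9% dimmer in replicate 1. The members brighter in replicate 1 had a median replicate difference of 0.59 log2 and those dimmer in replicate 1 one of −0.61 log2. CpG-ODN minus buffer had medians of −0.79 and −0.86 log2 in replicates 1 and 2 among the 14, and of −0.48 and −0.61 log2 among the 8. Members 1 to 5 all belonged to the 14. The rule used these CpG-ODN minus buffer differences, so nothing is read from their medians or from the place of members 1 to 5. A link between replicate direction and the size of the difference was not tested.

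With treatment as a block, limma called 16 of the 23 members different between the replicates, 10 brighter and 6 dimmer in replicate 1, against 12.6% of all tested probe sets (6.59% brighter and 5.98% dimmer). Without that block, limma called 1 of the 23, which was brighter in replicate 1, against 3.33% of all tested (1.55% brighter and 1.78% dimmer). Neither count is free of the rule. The fit without the block counts the difference between CpG-ODN and buffer as error, which the rule had made large in every member. The fit with it takes its error in part from the gap between a member's 2 differences, which the rule also constrained. Both counts are therefore given as a description. The 1 call was member 4, which was 4.05 log2 (SE 0.59) or 16.6-fold brighter in replicate 1, with a limma adjusted p of 0.0367. Only 2 of the 8442 tested probe sets, member 4 included, were as far apart between the replicates. Member 5 was 3.30 log2 (SE 0.87) brighter in replicate 1, which was not called without the block (limma adjusted p = 0.0935) and was called with it (0.00427).

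**Figure D3:**
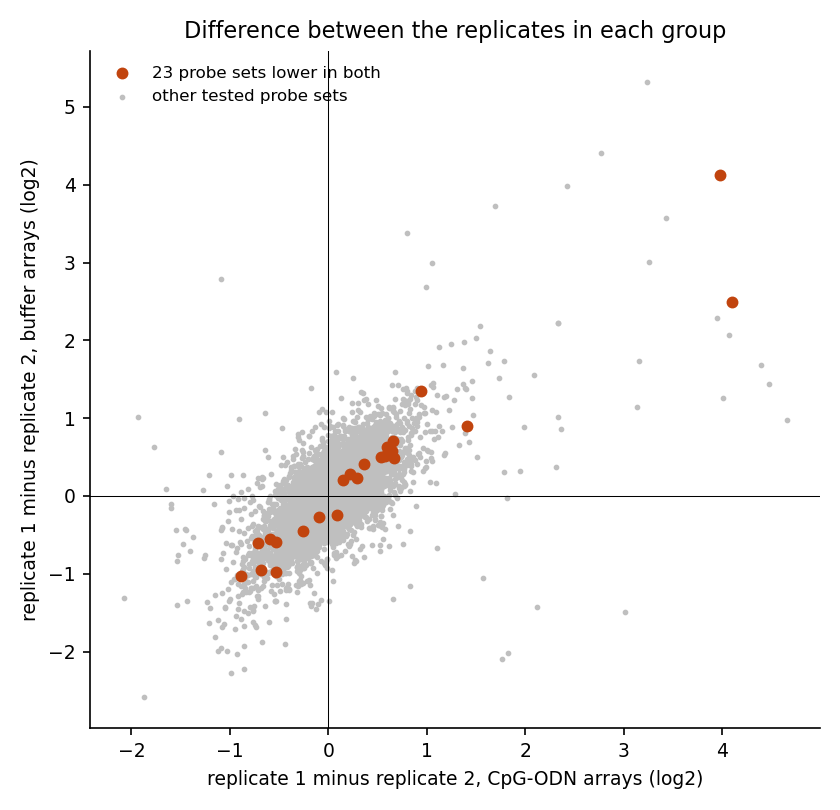
Replicate 1 minus replicate 2 on the CpG-ODN arrays (horizontal axis, log2) against the same difference on the buffer arrays (vertical axis, log2) for the 8442 tested probe sets, with the 23 members in red. Most members lie along the diagonal on either side of 0, members 4 and 5 lie at the upper right, and 16 of the 23 are at least 0.4 log2 from 0 on average over the groups.

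Control probe sets also set the replicates apart. The 9 hybridisation controls, bacterial and phage transcripts put into each hybridisation mix, gave more signal in replicate 1: by 0.66 log2 for the CpG-ODN arrays and by 0.67 for the buffer arrays. Between CpG-ODN and buffer they differed by 0.12 log2 in replicate 1 and 0.13 in replicate 2, in the direction opposite to the members. The mosquito actin controls differed by −0.07 and −0.15 log2 and the Gapdh controls, for a glycolytic enzyme, by 0.07 and 0.12. As a sign of RNA quality, 3′ signal divided by 5′ signal was 2.73 and 2.32 for Gapdh on the CpG-ODN arrays of replicates 1 and 2, against 3.00 and 2.32 on the buffer arrays. For actin it was 1.84 and 1.66 with CpG-ODN, against 1.80 and 1.23 with buffer. Both of these ratios were higher in replicate 1 in each group, and the actin ratio of replicate 2 also differed between CpG-ODN and buffer. The part of labelling, hybridisation or RNA quality in the members' differences was not tested.

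Some members had a further probe set with the same ID stem, the part of the ID before its first _ sign, that was not itself a member. Any that met the rule would have been counted as a member, so smaller differences in these further probe sets are partly fixed by the rule. There were 2 of them, and both had lower signal with CpG-ODN in both replicates, as did 32.4% of all tested probe sets. The partner of member 17, whose ID carries UTR where the member's carries CDS, had signals of 707 and 690 with CpG-ODN, against 902 and 904 with buffer. Its groups did not overlap, and its differences of −0.35 and −0.39 log2 compare with −0.46 and −0.66 for the member. The partner of member 11 had 84.5 and 59.7 with CpG-ODN, against 86.5 and 67.1 with buffer. Its differences of −0.04 and −0.17 log2 were small beside the member's −0.91 and −0.51, and its groups overlapped.

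When probe sets that share only the arm field and the first number of the ID were included, a definition chosen after seeing the data, 5 members had 6 partners. Of these, 5 were above background on all 4 arrays. All 5 were lower with CpG-ODN in both replicates, as were 32.4% of all tested probe sets. Their mean differences ran from −0.37 to −0.10 log2 with a median of −0.29. Each was smaller than that of its member. Nothing is read from these sizes, since a partner that met the rule would itself be a member. Nor is anything read from the shared direction, since partners may not be independent of their members. The partner of member 18 had 635 and 424 with CpG-ODN, against 828 and 544 with buffer, a difference of −0.38 and −0.36 log2. The 2 partners of member 21 differed by −0.21 and −0.36 and by −0.28 and −0.16 log2. The sixth, the partner of member 23, lay under background on every array, and no difference is given for it. Partners may share transcripts or probes with their members, so they are not independent of them, and 18 members had none.

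The members were not spread evenly over brightness. When the eligible probe sets were divided into 4 equal groups by mean signal, the members numbered 3, 2, 5 and 13 from the dimmest to the brightest. In the same groups 34, 30, 31 and 26 probe sets, members included, were at or below the limit in replicate 1, and 162, 141, 146 and 132 in replicate 2. The geometric mean signal of the members ran from 69.7 to 1030 with a median of 372, while all tested probe sets had a median of 147. These counts do not extend to dimmer probe sets. Of 7754 Ag. probe sets outside Ag.X. that did not pass the brightness limit, 42 were at or below −0.4 log2 in both replicates.

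The ID fields of the members are given beside those of the eligible probe sets. The field that names a chromosome arm read 3R in 7 members (30.4%, against 21.4% of the eligible), 2R in 6 (26.1%, against 31.4%), 3L in 4 (17.4%, against 16.2%), 2L in 3 (13.0%, against 23.5%) and UNKN in 3 (13.0%, against 7.61%). The ending _a_at, used for probe sets that bind several transcripts of one gene, was held by 6 members (26.1%, against 26.9%), and _s_at by 3 (13.0%, against 9.58%). The word CDS stood in the IDs of 20 members (87.0%, against 77.5%), UTR in 2 (8.7%, against 7.92%) and neither in 1 (4.35%, against 14.6%). No test was run on these shares. With 23 members they are imprecise, and neither likeness nor difference is read from them.

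The choice of scaling changed which members passed the limit but not their direction. All 23 were lower with CpG-ODN in both replicates after quantile normalization, median centring and cyclic loess, and on the log2(signal + 64) scale. The log2(signal + 64) scale cannot turn a sign. With array medians of 67.2 to 70.7, median centring could not turn a difference of −0.4 log2 either. All 23 still passed the limit after quantile normalization and after cyclic loess, which gave 28 and 27 probe sets by the same rule. After median centring 16 of the 23 passed, and the 7 that did not were members 15, 16, 18, 19, 21, 22 and 23. On the log2(signal + 64) scale, where differences of dim probe sets shrink, 13 of the 23 passed. Members 1 to 8 passed under each of these 4 alternatives.

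**Figure D4:**
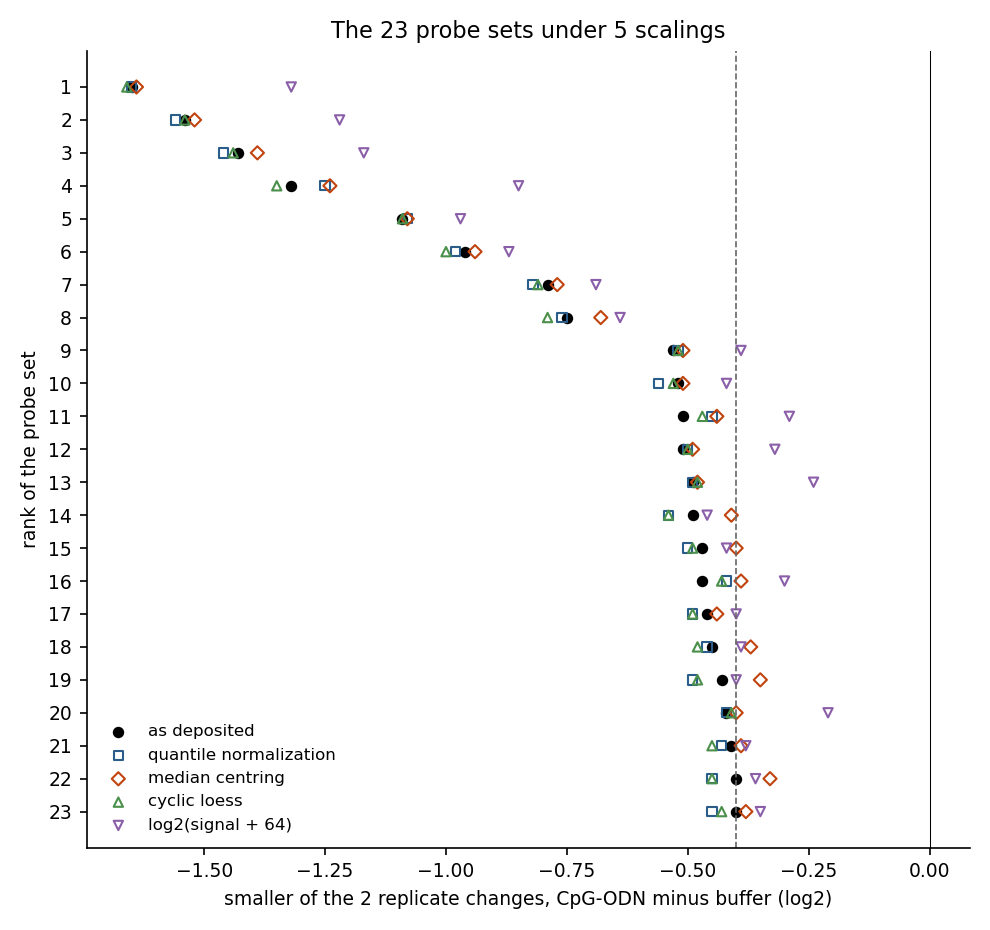
The weaker of the 2 replicate differences, CpG-ODN minus buffer (horizontal axis, log2), of the 23 members (rows, by rank) as deposited and under 4 alternatives, with the limit of −0.4 as a dashed line. Members 1 to 8 lie well left of the limit under all 5, members 10, 14 and 17 also stay at or left of it, and the other 12 lie close to it and cross it under median centring or log2(signal + 64).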

How the data were processed

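RNA of 4 samples was measured on single-colour Affymetrix arrays. The authors deposited linear signal intensity values, made with MAS5 per the submitters' processing notes; which version and which scaling target were used is not stated there. The groups and replicate numbers came from the sample titles; arrays were paired by that number, which the descriptions give as 1 and 3. The series text speaks of independent experiments, but not of shared batches between groups, so p-values measure only the spread between these samples.

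The deposited scaling was kept and log2 was taken with no pseudocount. The tests were two-sided moderated tests of limma 3.58.1 (R 4.3.3; lmFit, eBayes with a trend on brightness) over the upper 50% of Ag. probe sets by mean log2 signal, 8442 in all, with Benjamini-Hochberg adjustment at 0.05. The fits were also run on simulated data, with the requirement that estimated changes match the simulated ones in size on average. The share of changes recovered there is not reported here. The alternatives were other scalings, filters and error models, a replicate block and leaving out each array. The number of arrays limits the precision.

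The members, lists and tests were chosen with earlier results of these data known. The rule for named probe sets took the members in order of the weaker difference and, without gene names, gave the IDs of the first 2. The planned gene and marker lists could not be applied without gene names. The oligonucleotide is called 0604 in the titles and 0640 in the descriptions and was taken to be the same.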

Additional observations from a re-analysis of the deposited data

How the results depend on the processing

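Without the block, limma called 0 probe sets lower and 0 higher with CpG-ODN under quantile normalization, median centring, cyclic loess, log2(signal + 64), no filter, the upper 25% by brightness and no trend, and without any 1 array (range 0 to 0; the group left with 1 array was taken to have the spread of the other). At an unadjusted limma p below 0.05 there were 152 as reported, and with 1 array left out the lowest count was 74, without CpG-ODN replicate 2, and the highest 618, without buffer replicate 1. With the replicate block limma called 5 lower and 16 higher. Same-numbered arrays deviated together (r = 0.664 across probe sets), a hint from the data and not from the design. Between the replicates, limma called 150 dimmer and 131 brighter in replicate 1 as reported, 505 and 556 with treatment as a block, 290 and 291 with no filter, and 10 and 22 in the upper 25%, with fewer probe sets tested. There were 97 dimmer without the trend and 73 brighter after median centring; the cause was not tested. The rule gave 13 members on the log2(signal + 64) scale and 65 with no filter. The median difference of the members was −0.69 log2 as reported and −0.47 on the log2(signal + 64) scale, which shrinks differences by construction. It ran from −0.81 to −0.65 when 1 array was left out, an alternative added after seeing the data, and leaving out an array ends the rule's pairing, so members were not chosen anew. Partners lower in both replicates numbered 6 under the wider definition, also added later, against 2. Of all tested probe sets 32.4% were lower in both. Among the 6 partners, 1 lay under background on every array.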

Other observations

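The rule's brightness condition left out dim probe sets. Of 7754 dimmer Ag. probe sets outside Ag.X., 42 were at or below −0.4 log2 in both replicates, 32 were at or above 0.4 in both and 123 passed 0.4 in opposite directions. Among the 937 probe sets with accession-based IDs, for which the files name no organism, 46 were above the same brightness limit and 0 of these were at or below −0.4 log2 in both replicates.

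For 15 of the 23 members the dimmest of the 4 arrays was the CpG-ODN array of replicate 2, and for the other 8 it was the CpG-ODN array of replicate 1. The brightest array was the buffer array of replicate 1 for 14 members and that of replicate 2 for 9. The rule fixes that a CpG-ODN array was the dimmest and a buffer array the brightest in every member. It did not set the replicate number of these arrays. Shares over all tested probe sets are not given here, so nothing is read from these counts.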
